A study of Mus musculus with 167 samples.

Results

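The miR-322 to miR-450a cluster is a group of mouse microRNAs (miRNAs) that are encoded side by side on the X chromosome. It was followed here by 6 mature products, mmu-miR-322-5p, mmu-miR-322-3p, mmu-miR-503-5p, mmu-miR-351-5p, mmu-miR-542-3p and mmu-miR-450a-5p, which were taken by name from the 1915 mature miRNAs counted in each table. The rule went by name and used no measured value, but earlier results of these data were known when it was set.

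A mature miRNA is a short RNA cut from one arm (5p or 3p) of a hairpin precursor, and it represses messenger RNAs that pair with its seed, the bases close to its 5′ end. miRNAs that lie close together on one strand are often cut from a shared primary transcript, although the mature products can then accumulate unequally. The cluster is known from muscle differentiation, in which miR-322 and miR-503 rise as myoblasts leave the cell cycle and repress the cell-cycle phosphatase Cdc25A, while miR-542-3p is known to repress survivin, an inhibitor of apoptosis.

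The mature sequences show which members can share targets, with the seed (bases 2 to 8 from the 5′ end) in capitals and RefSeq on the GRCm38.p6 assembly as the source.
miR-322-5p: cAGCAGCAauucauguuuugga
miR-322-3p: aAACAUGAagcgcugcaacac
miR-503-5p: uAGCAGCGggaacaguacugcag
miR-351-5p: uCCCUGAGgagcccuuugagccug
miR-542-3p: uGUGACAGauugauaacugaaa
miR-450a-5p: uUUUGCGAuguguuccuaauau
The seed of miR-322-5p is that of the miR-15/16 family and was carried by 10 miRNAs of the tables. miR-503-5p has the same seed up to 1 base, A8G with miR-322-5p given first and positions counted from the 5′ end of the miRNA. The seed of miR-351-5p is that of miR-125a-5p and miR-125b-5p and was carried by 5 miRNAs of the tables. The other 4 members, miR-503-5p included, each had a seed found in 1 miRNA of the tables, the member itself. The most abundant relatives are shown for comparison with miR-322-5p and miR-351-5p.
miR-16-5p: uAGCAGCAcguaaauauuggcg
miR-125b-5p: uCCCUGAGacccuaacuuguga

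On GRCm38.p6, 7 hairpins with 13 mature products lie within 6353 bases on the minus strand (chrX:53047997-53054349). In the direction of transcription the order of the members is miR-322-5p (chrX:53054306-53054327), miR-322-3p (chrX:53054269-53054289), miR-503-5p (chrX:53054027-53054049), miR-351-5p (chrX:53053315-53053338), miR-542-3p (chrX:53049415-53049436) and miR-450a-5p. The last is made from 2 hairpins, Mir450-2 (chrX:53048339-53048360) and Mir450-1 (chrX:53048206-53048227), so its reads cannot be assigned to one of them. The hairpins of miR-322, miR-503 and miR-351 lie within the span of the non-coding RefSeq gene C430049B03Rik, and the hairpins of miR-542 and miR-450 lie outside any RefSeq gene other than their own.

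Small RNA was sequenced from homogenized lung, heart and brain tissue and from white (WBC) and red (RBC) blood cell fractions of 35 adult mice that had received WTLI, an irradiation of the whole thorax with the lungs, or a sham procedure, and had survived to the study endpoint. C3H mice (C3Hf/Sed/Kam) were collected at month 4 and C57 mice (C57Bl/6) at month 6, so that strain and time cannot be told apart. In lung, heart, brain and RBC the groups were 7 irradiated and 8 sham C3H mice and 5 irradiated and 15 sham C57 mice, and in WBC they were 6, 5, 5 and 11. Every C3H mouse was female, as were 7 of 15 sham and 1 of 5 irradiated C57 mice (replicate 5), and mice that died before the endpoint were not sampled. The sample titles also carry a letter, A or B, whose meaning is not given, so values within each letter stand beside the irradiation results.

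Library totals ran from 1794995 to 7865102 miRNA reads, and every pair of libraries in a group differed by more than sampling noise. Heart and brain matched their markers, since miR-208a-3p was above every library of the other tissues in 35 of 35 heart libraries and miR-124-3p in 35 of 35 brain libraries, and lung did so for the epithelial miR-200c-3p in all libraries but 1. The myeloid miR-223-3p set 13 of 27 WBC libraries apart in this way and the erythroid miR-451a 0 of 35 RBC libraries, whose mean was 14469 RPM (reads per 1000000 miRNA reads) against 3069 RPM elsewhere. In sham group means the leukocyte markers were not higher in WBC than in RBC, and in C57 mice the erythrocyte markers were not higher in RBC than in WBC. The 5 leukocyte markers summed to 28088 RPM in RBC and 19917 RPM in WBC of sham C3H mice and to 26622 and 24400 RPM in sham C57 mice, and the 4 erythrocyte markers to 61502 and 37772 RPM in C3H and 50747 and 52722 RPM in C57. One library, C3H irradiated heart replicate 3, held 50690 RPM of the 4 cardiac muscle markers summed, against 152407 to 246805 RPM in the other 6 of its group and 216176 to 291001 RPM in the 8 sham hearts. Results in C3H heart that passed after irradiation are given with and without it. In homogenates and fractions, fewer cells of a type and less RNA per cell cannot be told apart.

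In means over the sham mice, all 6 members had their highest RPM in lung. RPM are shares of a library, and miR-16-5p alone had a mean of 436766 RPM in sham WBC and 439608 RPM in RBC, against 63957 RPM in lung. This leaves less of the total for every other miRNA in the blood fractions. The counts of each tissue were also deposited as a separate set, so tissue and set cannot be told apart. Both limits hold for the tissue order tested below. In the 23 sham mice, miR-322-5p, the leading product, had a mean of 1038 ± 392 RPM in lung (SD, n = 23), 610 ± 99.0 RPM in heart (n = 23), 592 ± 354 RPM in WBC (n = 16), 303 ± 175 RPM in RBC (n = 23) and 134 ± 21.8 RPM in brain (n = 23). miR-542-3p followed with 429 ± 110 RPM in lung and 209 ± 52.2 RPM in heart, and miR-503-5p with 325 ± 76.3 RPM in lung and 80.4 ± 14 RPM in heart. The remaining members were scarce. miR-322-3p, the opposite arm of the miR-322 hairpin, had 64.9 ± 22.4 RPM in lung, miR-351-5p had 45.4 ± 34.6 RPM and miR-450a-5p had 9.42 ± 3.63 RPM. Over all lung libraries, miR-322-5p made up 54.7% ± 7.22 (SD, n = 35) of the summed reads of the 6 members, and in RBC 84.7% ± 6.12 (n = 35).

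The order of the tissues was compared within animals by paired permutation tests (two-sided, 100000 resamples, Benjamini-Hochberg adjustment over 24 pairs of neighbouring tissues), and 18 of the 24 neighbours differed. Over both strains lung exceeded the next tissue for each member, for example by 0.68 ± 0.60 log2 units over heart for miR-322-5p (SD, 21 of 23 mice higher) and by 1.97 ± 1.66 log2 units over WBC for miR-503-5p (14 of 16 mice higher). Heart exceeded brain by 2.14 ± 0.40 log2 units for miR-503-5p, in 23 of 23 mice. Neighbours that did not differ beyond their spread were heart and WBC for miR-322-5p (adjusted permutation p = 0.17), miR-503-5p (0.84), miR-351-5p (0.97) and miR-450a-5p (0.11), heart and brain for miR-351-5p (0.07), and RBC and brain for miR-450a-5p (0.65). The place of the blood fractions changed when 1 strain was taken alone. In C57 mice alone, miR-503-5p was 0.84 log2 units higher in WBC than in heart (adjusted permutation p = 0.006), whereas the difference over both strains was -0.10. The excess of lung over WBC for miR-351-5p did not pass in C57 mice alone (1.20, adjusted permutation p = 0.17), and the excess of lung over heart for miR-450a-5p did not pass in C3H mice alone (0.87, higher in 5 of 8 mice, adjusted exact permutation p = 0.19). In sham C57 males the WBC mean was above the lung mean for miR-322-5p (811 RPM in 7 and 731 RPM in 8 mice) and miR-351-5p (18.4 and 17.5 RPM).

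**Figure D1:**
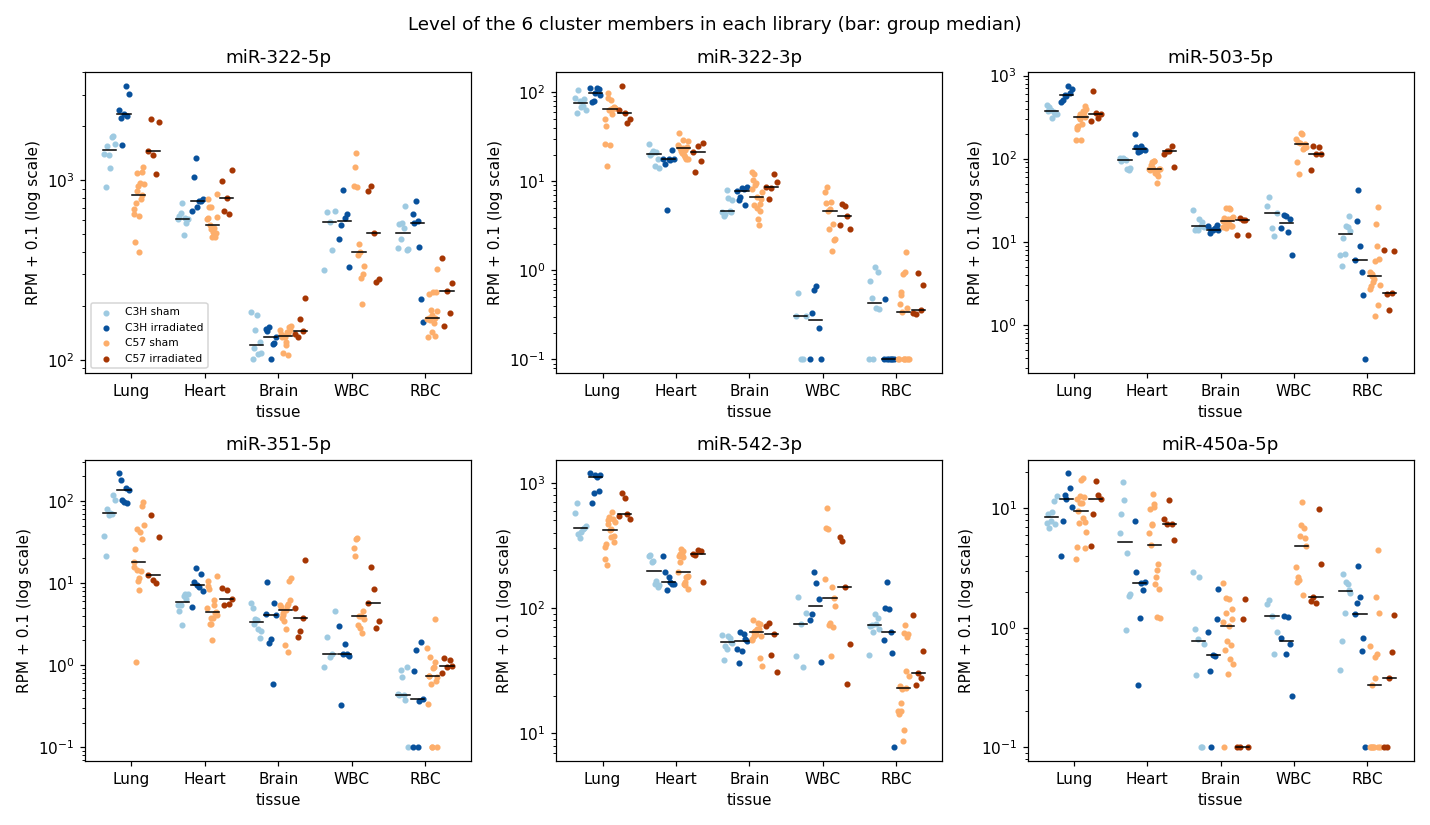
Level of each member (RPM + 0.1, log axis) in every library by tissue, strain and irradiation, with a bar at the group median. Each of the 6 members had its highest sham mean in lung, from 1038 RPM for miR-322-5p down to 9.42 RPM for miR-450a-5p.

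Whether irradiation changed the members was tested in each tissue and strain with limma on voom log2 RPM after quantile normalisation. A call needed an adjusted p below 0.05 and a log2 fold change of at least 1.17 in size, and members that passed the adjusted p alone are described as such. No member was called in any of the 10 comparisons of irradiated with sham mice, and edgeR and DESeq2 called none either. Unadjusted limma p-values below 0.05 were found for 3 of 6 members in C3H lung, 2 of 6 in C57 lung, 4 of 6 in C3H heart and 1 of 6 in C57 heart. Over all miRNAs tested, 33.4%, 16.6%, 16.7% and 3.53% passed the adjusted p there, so the unadjusted shares were at least that large. The exact unadjusted shares over all miRNAs are not given here or below, so counts by unadjusted p are not read as an excess. Each library is 1 mouse, and the p-values measure the spread between these mice.

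In irradiated lung, miR-322-5p was higher in both strains and miR-542-3p was higher in C3H. By the adjusted p alone, 2 of 6 members rose in C3H lung, where 33.4% of 350 miRNAs passed (9.71% with the fold minimum), and 1 of 6 rose in C57 lung, where 16.6% passed (6.00% with the fold minimum). The median log2 fold change of the members was 0.49 in C3H lung and 0.20 in C57 lung, against -0.08 and -0.05 over all miRNAs tested.

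miR-322-5p ranged from 1586 to 3381 RPM (median 2353) in the 7 irradiated C3H lungs and from 918 to 1767 RPM (median 1484) in the 8 sham lungs. All but 1 irradiated library lay above every sham library. By limma it rose by 0.61 log2 units (SE 0.19, adjusted p = 0.0118), which was lost with trimmed-mean scaling (0.0542). Within letter A and letter B alone the log2 fold change was 0.58 to 0.63, and it passed in neither (limma adjusted p 0.0906 to 0.108).

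In C57 lung, miR-322-5p was at 1452, 2208, 1395, 1082 and 2120 RPM in the 5 irradiated libraries and between 398 and 1189 RPM (median 827) in the 15 sham libraries. Only the irradiated replicate 4 fell within the sham range. It rose by 0.98 log2 units (SE 0.19, limma adjusted p = 0.000311), and this passed in each of 9 other settings, without each replicate in turn and within each letter (0.75 to 1.24).

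miR-542-3p ranged from 694 to 1188 RPM (median 1103) in irradiated C3H lung and from 359 to 693 RPM (median 432) in sham lung, without overlap. The rise was 0.82 log2 units (SE 0.22, limma adjusted p = 0.00509). It was 0.73 within letter A (0.204) and 0.94 within letter B (0.00831). In C57 lung, miR-542-3p was at 538, 834, 752, 563 and 513 RPM after irradiation and at 222 to 587 RPM (median 423) in sham lung, with 3 irradiated libraries inside the sham range. There the log2 fold change of 0.47 (SE 0.23) did not pass (limma adjusted p = 0.142).

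miR-503-5p showed how far the scaling mattered. On library totals the 7 irradiated C3H lungs (482 to 757 RPM, median 591) lay above all 8 sham lungs (307 to 440 RPM, median 372). After quantile normalisation the difference was 0.38 log2 units (SE 0.18, limma adjusted p = 0.113), and with library size alone it was 0.68 (0.00269). Over all miRNAs, scaling by library size alone moved the median log2 fold change in C3H lung from -0.08 to 0.27, in C57 lung from -0.05 to 0.12 and in C3H heart from -0.03 to -0.17. Calls over all miRNAs in C3H lung changed from 22 higher and 12 lower to 41 higher and 3 lower.

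The other members did not pass in lung. miR-351-5p was at 95.7 to 218 RPM in irradiated and 21.2 to 119 RPM in sham C3H lung, with a log2 fold change of 0.75 and an SE of 0.53 (limma adjusted p = 0.292). In C57 lung it had a log2 fold change of -0.24 (SE 0.57). miR-322-3p gave -0.09 (SE 0.27) in C3H lung, a sign that turned with library size alone (0.35), and 0.19 (SE 0.27) in C57 lung. miR-450a-5p gave -0.21 (SE 0.32) in C3H lung, 0.26 with library size alone, and -0.05 (SE 0.31) in C57 lung.

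Marker miRNAs moved in the same lungs. In C3H lung 4 of 4 cardiac muscle markers fell by the adjusted p (2 with the fold minimum), and their summed level was 2569 to 5226 RPM in irradiated and 4759 to 7515 RPM in sham mice. In C57 lung 1 of the 4 fell, and the sums were 2701 to 8560 RPM and 2724 to 7697 RPM. Of the 5 mesenchymal markers 1 rose in C3H lung (39903 to 69762 RPM summed in irradiated and 47413 to 57360 RPM in sham mice) and 1 fell in C57 lung (49753 to 62839 RPM and 48362 to 80589 RPM). In C3H lung 1 of 2 endothelial markers (297017 to 390147 RPM summed in irradiated and 380361 to 444378 RPM in sham mice) and 1 of 5 epithelial markers (8381 to 22738 RPM and 12588 to 22592 RPM) fell. In C57 lung 1 of 2 neuronal markers rose (34.7 to 383 RPM and 14.1 to 115 RPM). Of the 5 leukocyte and 4 erythrocyte markers 0 passed in either strain by limma, with summed levels in C3H lung of 2552 to 7019 RPM (leukocyte) and 289 to 2823 RPM (erythrocyte) after irradiation and 3397 to 4826 RPM and 181 to 1134 RPM in sham mice. In C57 lung the leukocyte sums were 5564 to 6829 RPM (mean 6312) after irradiation and 2393 to 9748 RPM (mean 4307) in sham mice, and the erythrocyte sums 81.0 to 471 RPM (mean 240.4) and 106 to 2121 RPM (mean 499.6). None of the markers was at 0, and their part in the result was not tested.

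In irradiated heart, miR-503-5p rose in both strains, and miR-322-5p and miR-351-5p rose in C3H. By the adjusted p alone 3 of 6 members rose in C3H heart, where 16.7% of 312 miRNAs passed (6.73% with the fold minimum), and 1 of 6 rose in C57 heart, where 3.53% passed (0.962% with the fold minimum).

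miR-503-5p ranged from 119 to 200 RPM (median 130) in the 7 irradiated C3H hearts and from 73.7 to 103 RPM (median 95.2) in the 8 sham hearts, and the groups did not overlap. By limma the rise was 0.57 log2 units (SE 0.13, adjusted p = 0.00244). It passed in each of 8 other settings and without each replicate, including replicate 3 (0.57, adjusted p = 0.00338). Within letter A it was 0.66 (0.0323) and within letter B 0.50 (0.123).

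The 5 irradiated C57 hearts held 113, 124, 124, 140 and 78.9 RPM of miR-503-5p, and the 15 sham hearts held 51.2 to 94.5 RPM (median 75.1). The 4 males lay above every sham heart. The 1 female lay within the range of all sham hearts, but above the 7 sham females (51.2 to 75.8 RPM). By limma the rise was 0.52 log2 units (SE 0.13, adjusted p = 0.0168). It was no longer significant without replicate 2 (0.43, adjusted p = 0.109), replicate 3 (0.50, 0.0573) or replicate 4 (0.43, 0.107), nor within a letter (0.33 to 0.70), while without the female it was 0.64 (0.00227).

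miR-322-5p was at 679 to 1331 RPM (median 766) in irradiated and 496 to 753 RPM (median 613) in sham C3H heart, and 5 of 7 irradiated libraries lay above all sham libraries. The log2 fold change of 0.53 (SE 0.17, limma adjusted p = 0.0263) was lost without replicate 3, the library with few cardiac muscle markers (0.31, adjusted p = 0.0734), and with a looser count filter (0.0608). Within letter A it was 0.96 (0.0409) and within letter B 0.19 (0.629). In C57 heart, miR-322-5p was at 995, 673, 799, 646 and 1148 RPM against 482 to 841 RPM (median 563) in sham heart. There the difference was 0.11 log2 units (SE 0.17, limma adjusted p = 0.8) after quantile normalisation and 0.48 (0.0494) with library size alone.

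miR-351-5p was scarce in heart, at 5.03 to 15.1 RPM (median 9.43) in irradiated and 2.98 to 7.33 RPM (median 5.86) in sham C3H mice. Of the 7 irradiated libraries 6 lay above the sham range. This was a rise of 1.01 log2 units (SE 0.35, limma adjusted p = 0.0415). It was lost with library size alone (0.78), with a looser filter, and without replicate 3 (0.81, adjusted p = 0.122), 4 (0.99, 0.0576) or 6 (0.93, 0.0763), and it was 1.70 within letter A and 0.23 within letter B.

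miR-322-3p, miR-542-3p and miR-450a-5p did not pass in either heart comparison. In C3H heart their log2 fold changes were -0.26 (SE 0.18), -0.16 (SE 0.15) and -1.11 (SE 0.48, limma adjusted p = 0.110). In C57 heart they were -0.32 (SE 0.18), 0.29 (SE 0.15) and 0.72 (SE 0.40). The interaction of strain and irradiation for miR-450a-5p, 1.83 (SE 0.63), did not pass (limma adjusted p = 0.160).

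Marker lists moved in C3H heart as well. By the adjusted p, 2 of 4 erythrocyte markers fell (331 to 1722 RPM summed in irradiated and 608 to 2740 RPM in sham mice), as did 1 of 5 leukocyte markers (833 to 2656 RPM and 1065 to 10253 RPM), 1 of 4 cardiac muscle markers (50690 to 246805 RPM and 216176 to 291001 RPM) and 1 of 5 mesenchymal markers (43820 to 71467 RPM and 41644 to 81090 RPM). In C57 heart 1 of 5 leukocyte markers fell. The summed level of the 5 went the other way, at 1776 to 2374 RPM (mean 2106) after irradiation and 986 to 2603 RPM (mean 1691) in sham mice. Without C3H replicate 3, 1 erythrocyte, 1 leukocyte and 1 cardiac muscle marker fell by limma, and 0 mesenchymal markers passed. None of these markers was at 0, and their part in the result was not tested.

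**Figure D2:**
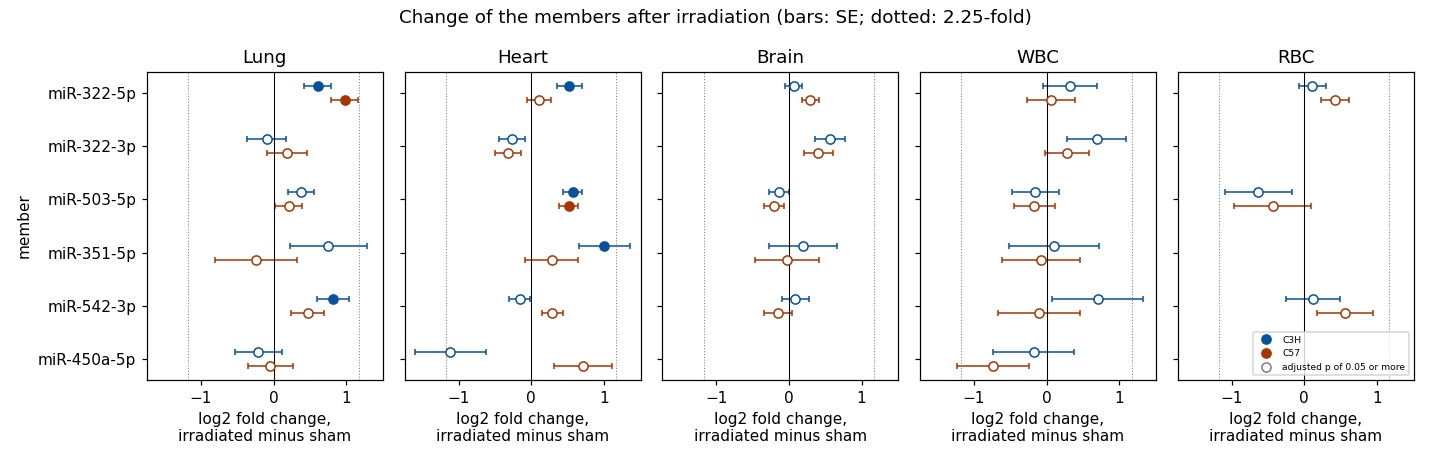
Log2 fold change (irradiated minus sham, limma) of each member tested in each tissue, C3H and C57 apart, with bars for the SE, filled points for an adjusted p below 0.05 and dotted lines at the fold minimum. Filled points appear in lung (miR-322-5p in both strains, miR-542-3p in C3H) and heart (miR-503-5p in both strains, miR-322-5p and miR-351-5p in C3H), and none of them is past a dotted line.

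Lung and heart both lie in the thorax, and a joint fit of lung and heart tested whether their responses differed. In C3H the response of miR-542-3p was 0.97 log2 units higher in lung than in heart (SE 0.27, limma adjusted p = 0.0138), 1 of 6 members where 6.68% of 374 miRNAs differed. This difference passed in 7 of 7 other settings (0.69 to 1.28) and without C3H heart irradiated replicate 3 (0.95, limma adjusted p = 0.0211). In C57 the response of miR-322-5p was 1.02 log2 units higher in lung (SE 0.26, adjusted p = 0.0104), 1 of 6 members where 5.61% differed. It was lost with edgeR, DESeq2, trimmed-mean scaling and library size alone, down to 0.43 (adjusted p up to 0.507). For miR-503-5p, which passed in heart, the difference was -0.25 (SE 0.23) in C3H and -0.37 (SE 0.24) in C57, and neither passed.

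The strains were not found to differ in their response. The interaction of strain and irradiation passed for 0 of 6 members in lung (0.286% of all miRNAs) and 0 of 6 in heart (0%), 0 of 5 in brain (0%), 0 of 6 in WBC (0%) and 0 of 3 in RBC (0%) by limma, and edgeR and DESeq2 called no member. Unadjusted limma p-values below 0.05 were found for 2 members in heart and for 0 in the other tissues, again without the share over all miRNAs. For miR-322-5p in lung the interaction (C57 minus C3H) was 0.37 with an SE of 0.27, so a difference of this size was not resolved.

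In brain and the blood fractions no member passed by limma. In brain 5 members were tested, since miR-450a-5p was below the count filter, and 0 passed in either strain (0% of 433 miRNAs in C3H and 0% in C57). Those shares are by the adjusted p. Unadjusted limma p-values below 0.05 were found for 1 member in C3H and 2 in C57, without the share over all miRNAs by that rule. Of these, miR-322-5p in C57 brain had a log2 fold change of 0.30 (SE 0.12, limma adjusted p = 0.252) and miR-322-3p in C3H brain 0.56 (SE 0.21, adjusted p = 0.997). In WBC 0 of 6 members passed in either strain (0% of 291 miRNAs in C3H and 0% in C57), none with an unadjusted p below 0.05. In RBC 3 members were tested, as miR-322-3p, miR-351-5p and miR-450a-5p were below the filter, and 0 passed (0% of 229 miRNAs in C3H and 0% in C57), with an unadjusted p below 0.05 for miR-322-5p in C57 (0.42, SE 0.19). Over all miRNAs in RBC, edgeR called 6 in C3H and 1 in C57 and DESeq2 14 and 1, and no member was among them. The SE of single members in WBC reached 0.63 log2 units, and a change of this size was not detectable there.

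The arms of the miR-322 hairpin can be compared within a library, where the library total cancels. The 5p arm made up a median of 94.6% of the reads of both arms in lung, 95.5% in brain, 97.0% in heart, and more in the blood fractions (99.5% in WBC, 99.9% in RBC). The log2 ratio of 5p to 3p counts (0.5 added to each) was higher after irradiation in lung and heart of both strains. In lung it was 4.65 ± 0.28 (SD, n = 7) against 4.23 ± 0.29 (n = 8) in C3H, a difference of 0.42 (exact permutation test, two-sided, p = 0.0173, adjusted over 10 comparisons 0.0442). In C57 lung it was 4.66 ± 0.44 (n = 5) against 3.89 ± 0.61 (n = 15), a difference of 0.76 (exact permutation p = 0.0177, adjusted 0.0442). The irradiated group there had 4 males of 5 and the sham group 8 of 15, and among males alone the difference was 0.46 (exact permutation p = 0.291, adjusted 0.485). Within letter A it was 0.40 (exact permutation, adjusted p = 0.783).

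In heart the ratio was 5.82 ± 1.07 (n = 7) against 4.99 ± 0.24 (n = 8) in C3H, a difference of 0.83 (exact permutation p = 0.0028, adjusted 0.014), which was 0.44 without replicate 3 and still passed. In C57 heart it was 5.38 ± 0.27 (n = 5) against 4.69 ± 0.37 (n = 15), a difference of 0.70 (exact permutation p = 0.00116, adjusted 0.0116). The difference was positive within both letters for all 4 pairs, but within 1 letter it passed only in C57 lung, for letter B. For letter A in C3H lung and in C3H heart (3 irradiated and 4 sham mice) the exact permutation p was 0.0286 (adjusted 0.0628). For letter A in C57 heart (2 and 8 mice) it was 0.0222 (adjusted 0.0556). These are the smallest p-values such small groups can give, so these tests could not pass. The lung results were also lost without any one of 4 irradiated replicates in C3H (2, 4, 5 or 7, down to 0.36) and in C57 (1, 3, 4 or 5, down to 0.58). No shift passed in brain (-0.47 in C3H, exact permutation test, adjusted p = 0.0628, and -0.14 in C57), WBC (0.05 and -0.06) or RBC (1.05 and -0.32). In RBC the 3p arm had 0 to 6 counts per library and in WBC 0 to 29, and the ratio there depends on the added count. In C3H RBC the difference was 2.28 with 0.1 added and 0.62 with 1 added.

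**Figure D3:**
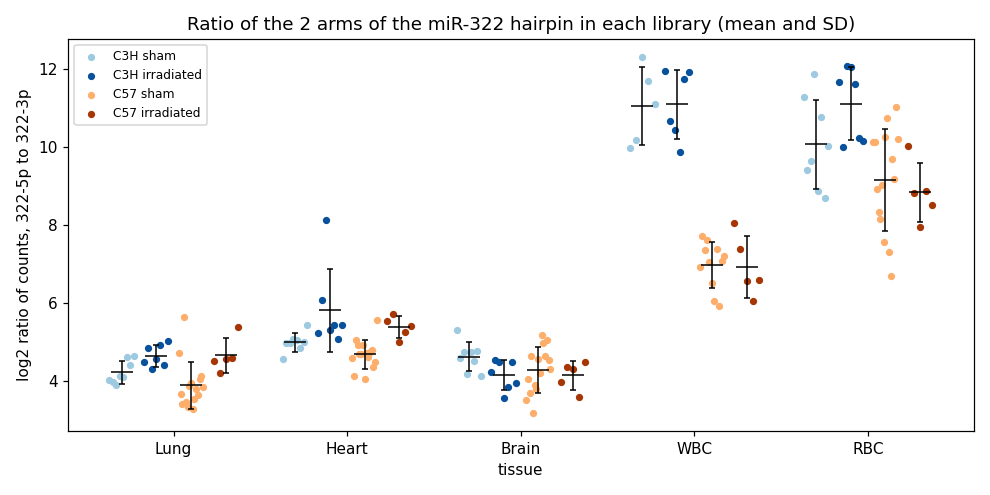
Log2 ratio of miR-322-5p to miR-322-3p counts in each library by tissue, strain and irradiation, with the group mean and SD in black. Irradiated means exceed sham means in lung (4.65 against 4.23 in C3H, 4.66 against 3.89 in C57) and heart (5.82 against 4.99 and 5.38 against 4.69).

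The other products of the locus and the relatives by seed were counted as lists. Of the 7 other locus products 6 passed the filter in lung, and 1 rose in C3H lung, miR-542-5p, the opposite arm of the miR-542 hairpin, with 37.1 to 75.1 RPM in irradiated and 16.1 to 36.4 RPM in sham mice (log2 fold change 0.77, limma adjusted p = 0.0376). The list's median log2 fold change was 0.10 in C3H lung and 0.14 in C57 lung. By limma no other locus product passed after irradiation, in lung or of the 4 tested in heart, at an unadjusted p below 0.05 either. With library size alone miR-450b-5p and miR-450b-3p also passed in C3H lung, and with DESeq2 miR-450b-5p did. Of the 5 miR-15/16 relatives (miR-15a-5p, miR-15b-5p, miR-16-5p, miR-195a-5p and miR-497a-5p) and the 2 miR-125 relatives, 0 passed after irradiation in any of the 5 tissues by limma. Over the 10 comparisons, 4 values of the first list and 1 of the second had an unadjusted limma p below 0.05, counts not set against the share over all miRNAs. miR-16-5p itself stood at 63957 ± 15665 RPM in sham lung (SD, n = 23) and miR-125b-5p at 8427 ± 4498 RPM, far above miR-322-5p and miR-351-5p, and their log2 fold changes in C3H lung were -0.04 and 0.43 (limma adjusted p = 0.863 and 0.353).

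The muscle miRNAs, listed because the cluster is known from muscle, fell where they passed. The list holds the 4 cardiac muscle markers named above. In C3H lung 5 of the 6 tested fell by the adjusted p (3 with the fold minimum), where 33.4% of all miRNAs passed in either direction, with a list median of -1.13, among them miR-499-5p (-1.46, limma adjusted p = 1.2e-05) and miR-133a-3p (-0.87, 0.000948). miR-499 is encoded in a myosin heavy chain gene, and miR-133a is a muscle-enriched miRNA. In C57 lung, where 16.6% passed, 2 of 6 fell, miR-208b-3p (-2.18, limma adjusted p = 0.00117) and miR-499-5p (-1.15, 0.0401). In C3H heart, where 16.7% passed, 2 of 6 fell, miR-133b-3p (-0.68, limma adjusted p = 0.0284) and miR-499-5p (-0.85, 0.00613). Without replicate 3 the first was lost (-0.40, limma adjusted p = 0.109), while miR-499-5p still passed (-0.69, 0.0237). In C57 heart, where 3.53% passed, 0 of 6 did by limma.

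Among sham mice the members also differed by strain, compared in females only. The WBC fraction held the largest differences, with 3 of 6 members called (17.2% of miRNAs with the fold minimum, 24.7% by the adjusted p alone). Of these 3, miR-322-3p met the count filter only through C57 libraries. miR-503-5p was at 26.6, 34.4, 14.6, 11.7 and 21.8 RPM in the 5 C3H females and at 130, 134, 150 and 138 RPM in the 4 C57 females. The C57 values were all above the C3H values, with a log2 difference of 1.98 (SE 0.33, limma adjusted p = 0.000119). miR-322-5p went the other way, at 316, 668, 590, 411 and 677 RPM in C3H and 284, 206, 303 and 333 RPM in C57, with 1 C57 library inside the C3H range. Its log2 difference of -1.46 (SE 0.39, limma adjusted p = 0.00804) was lost with library size alone (-0.88, 0.0948).

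miR-322-3p in WBC rested on few reads, with 1, 2, 0, 0 and 1 counts in the C3H and 7, 8, 6 and 11 counts in the C57 libraries. The groups did not overlap, and the fitted log2 difference of 1.72 (SE 0.38, limma adjusted p = 0.00183) depends on the prior count at this depth. With at most 0.57 RPM in any C3H library, miR-322-3p met the count filter only through the C57 libraries, where it was higher. Its call is therefore no separate support for a strain difference. In the same comparison 2 of 5 leukocyte markers were lower and 1 of 4 erythrocyte markers was higher in C57 by the adjusted p. Over all sham WBC libraries, males included, the leukocyte markers summed to 15266 to 22428 RPM (mean 19917) in C3H and 16287 to 33448 RPM (mean 24400) in C57. The erythrocyte markers summed to 30121 to 44647 RPM (mean 37772) and 23204 to 106907 RPM (mean 52722). Their part in the result was not tested.

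In the other tissues 1 of 6 members differed by strain in lung (15.1% of miRNAs), 1 of 6 in heart (38.5%), 0 of 5 in brain (15.9%) and 1 of 3 in RBC (19.7%), all by the adjusted p alone. In RBC, miR-322-5p ranged from 410 to 718 RPM (median 507) in C3H and from 135 to 319 RPM (median 188) in C57 females, without overlap, and the log2 difference of -1.10 (SE 0.19, limma adjusted p = 4.5e-05) was just under the fold minimum. In lung, miR-322-5p was lower in C57 females (638 to 1189 RPM, median 950) than in C3H females (918 to 1767 RPM, median 1484), with a log2 difference of -0.56 (SE 0.17, limma adjusted p = 0.0254). In heart, miR-322-3p was higher in C57 by 0.53 (SE 0.17, limma adjusted p = 0.0204), a result lost with library size alone and with a looser filter. In the same comparisons 3 of 4 cardiac muscle markers were lower in C57 lung and 2 of 4 in C57 heart, and in RBC 2 of 5 leukocyte markers were higher in C57. Their part in the result was not tested.

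Because the locus is X-linked, sham C57 females and males were compared. In heart 2 of 6 members were lower in females, where 39.4% of miRNAs differed by the adjusted p (8.33% with the fold minimum). miR-450a-5p was at 1.10 to 3.29 RPM (median 2.21) in 7 females and 4.82 to 12.98 RPM (median 8.51) in 8 males, without overlap, and was called with a log2 difference of -1.53 (SE 0.35, limma adjusted p = 0.00211). It had 4 to 47 counts per library, and under a stricter filter it was not tested. miR-542-3p was at 143 to 181 RPM (median 161) in females and 193 to 294 RPM (median 261) in males, also without overlap, with a log2 difference of -0.30 after quantile normalisation (SE 0.12, limma adjusted p = 0.0435). This was lost with a looser filter (limma adjusted p = 0.0795), and the difference reached -0.64 in other settings.

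The same 2 members were split by letter in C3H heart, where all mice were female. In the 4 sham hearts of letter A, miR-542-3p was at 232 to 266 RPM, and in the 4 of letter B at 146 to 164 RPM. miR-450a-5p was at 6.16 to 16.4 RPM in letter A and 0.85 to 4.11 RPM in letter B. The range of letter A overlapped that of the C57 males and the range of letter B that of the C57 females. In sham C57 hearts the letters overlapped within each sex for both members. In the sham C57 hearts of females, 2 of 4 cardiac muscle, 2 of 4 erythrocyte, 3 of 5 mesenchymal, 1 of 2 endothelial and 1 of 5 leukocyte markers were lower than in males by the adjusted p, and 1 mesenchymal and 1 leukocyte marker were higher. Their part in the result was not tested.

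**Figure D4:**
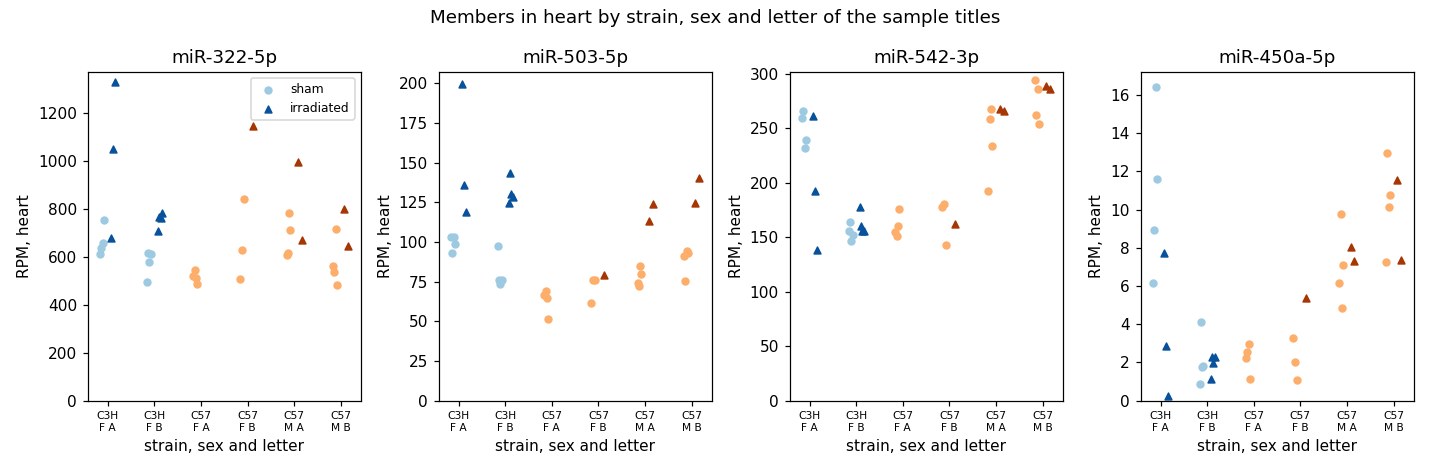
Level (RPM, linear axis from 0) of miR-322-5p, miR-503-5p, miR-542-3p and miR-450a-5p in every heart library by strain, sex and letter, with circles for sham and triangles for irradiated mice. For miR-542-3p the sham C3H females of letter A sit at 232 to 266 RPM and those of letter B at 146 to 164 RPM, while sham C57 females sit at 143 to 181 RPM and males at 193 to 294 RPM.

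In RBC 1 of 3 members was called and was higher in females (7.42% of miRNAs with the fold minimum, 18.8% by the adjusted p alone). miR-542-3p was at 22.9 to 73.4 RPM (median 58.7) in 7 females and 8.56 to 23.7 RPM (median 14.9) in 8 males, and the groups overlapped only at their edges. The log2 difference was 1.52 (SE 0.31, limma adjusted p = 0.000531). Of the marker lists in RBC, 1 of 4 erythrocyte and 1 of 5 leukocyte markers were lower and 1 leukocyte marker was higher in females, and their part was not tested. In brain 1 of 5 members differed (22.9%), miR-322-3p, at 3.14 to 7.58 RPM in females and 4.97 to 12.8 RPM in males (-0.54, SE 0.19, limma adjusted p = 0.0366, lost with a looser filter), and 5 of 5 epithelial markers were called higher in the same females. The epithelial markers summed to 172 to 41037 RPM over the sham C57 brains, and their part in the result was not tested. In lung 0 of 6 members passed (7.71%) and in WBC 0 of 6 (12%) by limma. Unadjusted limma p-values below 0.05 were found for 4 and 2 members, counts not set against the share over all miRNAs. edgeR and DESeq2 each called 1 in lung, miR-351-5p, higher in females, and DESeq2 called 1 in WBC, again miR-351-5p, there lower in females.

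The members were then correlated within each tissue across libraries, on deviations of log2(RPM + 0.5) from the means of strain and irradiation, with permutation p-values adjusted over 58 pairs. The libraries share letter, sex and scaling by total, which enter these values. In lung the median r over the 15 pairs was 0.44, against 0.10 over all miRNA pairs, and 7 pairs passed. The neighbours miR-322-3p and miR-503-5p gave r = 0.70 (rho = 0.72, adjusted permutation p = 0.0018, n = 35), miR-322-5p and miR-503-5p r = 0.64 (rho = 0.65, adjusted 0.0011), and without the 2 libraries farthest from the median r was 0.74 and 0.53. The 2 arms of miR-322 gave r = 0.56 (rho = 0.64, adjusted permutation p = 0.007, n = 35) and 0.48 without those 2. With the means of strain, irradiation, sex and letter removed, the lung pairs named here no longer passed. In the same order r was then 0.55, 0.59 and 0.52 (adjusted permutation p = 0.2, 0.12 and 0.2).

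miR-322-5p and miR-351-5p passed in all 4 tissues in which both were tested, since miR-351-5p was below the filter in RBC, with r = 0.58 in lung, 0.49 in heart, 0.52 in brain and 0.81 in WBC (rho = 0.67, 0.43, 0.51 and 0.79). With the means of strain, irradiation, sex and letter removed, this pair passed only in heart (r = 0.72, adjusted permutation p = 0.022). In lung, brain and WBC its r was then 0.39, 0.23 and 0.62 (adjusted permutation p = 0.3, 0.32 and 0.066). Before that removal, other pairs passed in fewer tissues. In heart the median r was -0.04 against 0.13 over all pairs, and 6 pairs passed, led by miR-542-3p and miR-450a-5p (r = 0.82, rho = 0.85) and miR-503-5p and miR-542-3p (r = 0.77, rho = 0.76). The first of these is the pair described above by letter and sex, and with the means of strain, irradiation, sex and letter removed it fell to r = 0.51 and no longer passed, and the second fell to r = 0.38 (adjusted permutation p = 0.5). Of the 6 pairs 1 was negative, miR-351-5p and miR-450a-5p (r = -0.45, rho = -0.40, adjusted permutation p = 0.025). In WBC (median 0.34 against 0.22) 8 pairs passed, led by miR-322-5p and miR-542-3p (r = 0.86, rho = 0.87), which was 0.94 with sex and letter removed. In WBC, miR-450a-5p ran against miR-542-3p (r = -0.62). This pair did not pass without the 2 libraries farthest from the median (r = -0.46, adjusted permutation p = 0.074). Nor did it pass with sex and letter removed (r = -0.53, adjusted permutation p = 0.32). In RBC (median 0.73 against 0.20) all 3 pairs of the tested members passed (r = 0.66 to 0.82). In brain (median -0.04 against 0.06) 2 of 10 did, 1 of them negative (miR-351-5p and miR-542-3p, r = -0.62). With sex and letter removed, 1 pair passed in lung, 2 in heart, 0 in brain and 3 in WBC. The 1 in lung was miR-322-3p and miR-351-5p (r = 0.77, adjusted permutation p = 0.00058). In RBC, miR-322-5p and miR-503-5p then no longer passed (r = 0.53, adjusted permutation p = 0.13).

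**Figure D5:**
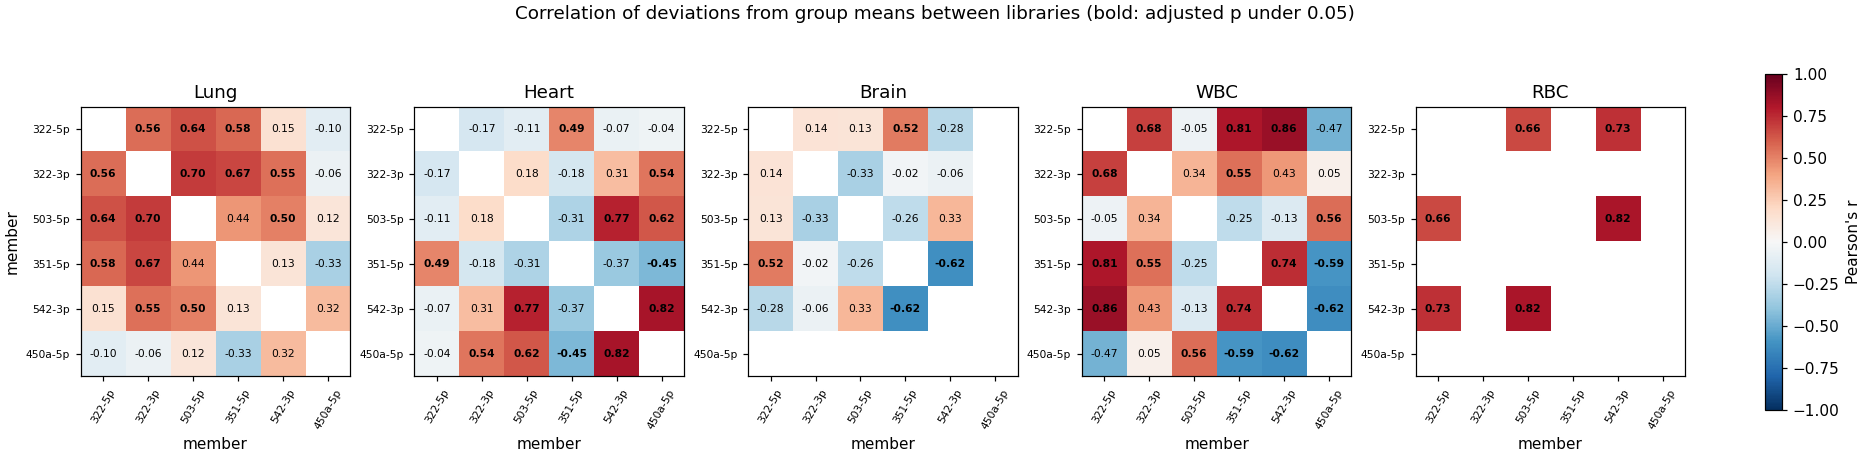
Pearson's r between members in each tissue, on deviations of log2(RPM + 0.5) from the means of strain and irradiation over 35 libraries (27 in WBC). Median r was 0.73 in RBC, where 3 members were compared, 0.44 in lung, 0.34 in WBC and -0.04 in both heart and brain.

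Over the means of the 20 groups, the miRNAs outside the 6 members whose profile was most like the members' mean (Pearson's r of log2(RPM + 0.5), of 639 miRNAs) were miR-503-3p (r = 0.96), miR-450a-2-3p (0.94), miR-224-5p (0.92), miR-155-5p (0.92) and miR-10a-5p (0.92). The first pair are products of the same locus. The 20 groups come from 5 tissues of the same mice, and the values follow the tissue order, with means over all libraries of 122 RPM of miR-503-3p in lung and 15.8 RPM in brain. Of the members, miR-503-5p was closest to the mean of the 6 (r = 0.98) and miR-322-5p farthest from it (r = 0.81, rank 40 of all miRNAs compared). That mean includes the member itself, which raises these values.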

How the data were processed

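Small RNA from lung, heart, brain, WBC and RBC of 35 mice was sequenced with a QIAseq miRNA kit (167 libraries). The authors deposited counts of reads per mature miRNA for each sample, not normalised, with mm10 named in the submitters' processing notes. How molecular identifiers and reads that match several miRNAs were counted is not given in the sources used here. Libraries dominated by adapter dimers had not been sequenced, and the plasma time course is not analysed here. All 1915 rows and all columns had a name and a sample (0 without). Groups came from the labels, and the animal number in the titles links the tissues of 1 mouse.

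From the counts, RPM used library totals. The totals of 1794995 to 7865102 reads set the precision of scarce members, and any range or SD covers the mice as sampled. Each tissue was fitted across all miRNAs that passed filterByExpr (count minimum 10, total minimum 15) with limma 3.58.1 (voom, quantile normalisation, Benjamini-Hochberg adjustment) in R 4.3.3. The irradiation comparisons used 1 model over strain and irradiation. The sham comparisons by strain and sex used 1 model over strain, sex and irradiation, which also held the irradiated libraries. Lung against heart used a joint fit. The pairing of lung and heart by animal comes from the titles, and its block correlation was 0.0570. Alternatives were edgeR 4.0.16, DESeq2 1.42.0, other scaling, filters (1 count in any library, or 10 counts in every library), covariates, 1 letter alone and left-out replicates. Permutation tests (Python 3.11.15, scipy 1.17.1) were exact or used 100000 resamples, which give 1e-05 as the smallest p, with 0.5 added to RPM or counts. Tests were checked on simulated data with known answers.

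The members and the lists were chosen with earlier results of these data known. The rule for named miRNAs took the 6 members, the other locus products, the relatives by seed, the muscle miRNAs and the 5 other profiles most like the members' mean, among miRNAs of at least 1 RPM in a group. Values within 1 letter, left-out libraries and males alone for the arm ratio, lung against heart and the lists without C3H heart irradiated replicate 3, and correlations with sex and letter removed were added after seeing the data. Sequences and coordinates came from RefSeq on GRCm38.p6, the assembly behind mm10.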

Additional observations from a re-analysis of the deposited data

Results flagged for a closer look

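In groups of 4 to 10 mice, 6 of 90 combinations of member and group held a library far from the others, and chance alone marks about 1 in 20. In C3H heart after irradiation, miR-503-5p was highest in replicate 1 (199.7 RPM, the others 118.8 to 143.4 RPM), and miR-322-3p was lowest in replicate 3 (4.65 RPM from 20 counts, the others 15.6 to 22.5 RPM), the library with few cardiac muscle markers. In irradiated C57 heart, miR-542-3p was lowest in replicate 5, the 1 female (162.7 RPM, the others 266 to 288.7 RPM). In irradiated C57 lung, miR-503-5p was highest in replicate 2 (658.9 RPM, the others 281.4 to 358.9 RPM). In C3H RBC, miR-542-3p was lowest in sham replicate 1 (42.5 RPM, the others 64.7 to 90.3 RPM), and miR-322-3p was seen in irradiated replicate 2 alone (0.378 RPM, 1 count).

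The responses of lung and heart to irradiation differed for miR-542-3p in C3H, by 0.97 log2 units, and for miR-322-5p in C57, by 1.02 log2 units, in the joint limma fit, and the second of these depended on the scaling.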

How the results depend on the processing

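Of 1967 values of single members under another setting, 1915 kept their side of the threshold, 28 lost and 23 gained significance and 1 turned. The 1915 include 151 changes of sign between values that passed in neither setting. The 1 that turned was miR-503-5p in heart by sex, 0.02 after quantile normalisation and -0.33 with library size alone (limma adjusted p = 0.0326). Without a fold minimum the number of members called after irradiation was 2 in C3H lung, 1 in C57 lung, 3 in C3H heart and 1 in C57 heart, against 0 with it. By strain it was then 1 each in lung, heart and RBC, by sex 2 in heart and 1 in brain, and 1 in each strain for lung against heart. Within letter A alone 1 member was called in C57 lung (miR-322-5p) and 2 in C3H heart (miR-351-5p and miR-450a-5p), and leaving out C3H heart replicates gave 0 to 1, the 1 (miR-351-5p) without replicate 1. By strain, DESeq2 called 1 in heart, and edgeR, DESeq2, trimmed-mean scaling and library size alone called 1 each in RBC (0 by the settings used above). By sex, edgeR and DESeq2 called 1 in lung and 2 in RBC, the stricter filter left 0 in heart, where miR-450a-5p was no longer tested, and DESeq2 and library size alone called 1 in WBC. For lung against heart in C3H, library size alone gave 1. Using the animal as a replicate block, miR-542-3p differed between lung and heart by 0.97 in C3H and miR-322-5p by 1.02 in C57 (limma adjusted p = 0.00704 for the latter), and the block changed no call. In C3H alone 7 neighbouring tissue pairs differed. Pairs with WBC had 5 C3H mice, for which the smallest exact two-sided permutation p is 0.062, so that they could not pass. The sign turned in C3H alone for WBC minus RBC (miR-322-5p -0.13, miR-322-3p -0.30, miR-450a-5p -0.10), for brain minus RBC (miR-542-3p -0.41), for RBC minus brain (miR-450a-5p 0.75) and for WBC minus heart (miR-351-5p -1.36), and in C57 alone for WBC minus heart (miR-503-5p 0.84). The shift of the miR-322 arm ratio did not pass within letter A or B in C3H lung (0.53, 0.28), C3H heart (1.58, 0.24) and C57 heart (0.93, 0.54), nor in C57 lung for letter A (0.40) or males (0.46). Letter A in C3H lung, C3H heart and C57 heart gave the smallest exact p possible for so few mice, which could not pass. Leaving out single irradiated libraries gave 0.36 to 0.48 in C3H lung, 0.58 to 0.88 in C57 lung and -0.53 to -0.37 in C3H brain, where the shift passed without replicate 2, 3 or 6. With sex and letter means removed, the number of correlated pairs was 1 in lung, 2 in heart, 0 in brain and 3 in WBC. Except where stated, the causes were not tested. Depth limited miR-322-3p, miR-351-5p and miR-450a-5p in the blood fractions and miR-450a-5p in brain, and counting error is not separated from the spread between mice.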
